A study of Mus musculus with 6 samples.

Results

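Introns that stay together in a transcript were followed in DN3 thymocytes, immature T cell precursors of the thymus that were sorted as lineage-negative, CD25+ and CD44- cells without CD4 or CD8. The deposited tables list multiple retained-intron events: a retained form, in which 1 exon runs through at least 2 introns and the exons between them, and a spliced form with the same outer exon edges, in which those introns are removed. A retained form was paired with a spliced form of the same gene, strand, span and outer edges, and 1101 such pairs were found. The 534 pairs whose retained and spliced forms had a summed mean of at least 5 FPKM (fragments per kilobase of transcript, scaled to the mapped fragments of a library) were kept, of 9507 retained or spliced and included or skipped pairs of 4 event types at that minimum in all. Members were thus chosen by their mean level over the 6 libraries, so that level is given as a description. The retained share is the retained form as a percentage of the sum of both forms in a library. Libraries came from untreated 5-week-old mice, 3 WT and 3 Hspa9 cKO. Hspa9 encodes GRP75, the HSP70 chaperone of the mitochondrial matrix, and the study asked what its loss does in early thymocyte development. Neither the Cre driver nor any allele shared with the WT mice is named in the sources. The labels do not tie libraries to single animals, and the p-values therefore reflect only the spread between libraries, part of which may be technical.

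Splicing removes introns after the spliceosome has read the 5′ splice site (usually GT in the DNA), the branch point, which the U2 particle and its SF3B1 subunit bind, and the 3′ splice site (usually AG). An intron that stays in the RNA often brings a stop codon into the reading frame, and such an RNA is either held in the nucleus or degraded by nonsense-mediated decay after export. Genes for splicing regulators, among them the CLK kinases and the SR proteins that they phosphorylate, are known for retaining introns in their own transcripts. A different case is Xbp1, a transcription factor of the unfolded protein response, from whose cytoplasmic mRNA the kinase and nuclease IRE1 cuts a short segment without the spliceosome.

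The sequences at the splice sites show how the introns of the members begin and end. They were read from GENCODE M21 transcripts (mm10) that run through the intron, each printed 5′ to 3′ on the strand of the gene with 10 exon bases on either side or at the outer end. Capitals mark the first and last 2 bases of the intron, and in Xbp1 the whole 26-nt segment. The 5 genes other than Xbp1 are shown because the results below turn on their pairs.
Sf3b1, 1451-nt intron, 5′ end: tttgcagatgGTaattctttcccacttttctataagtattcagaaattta
Sf3b1, 1451-nt intron, 3′ end: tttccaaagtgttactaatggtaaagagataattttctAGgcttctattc
Sf3b1, 306-nt intron, 5′ end: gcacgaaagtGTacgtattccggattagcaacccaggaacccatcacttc
Sf3b1, 306-nt intron, 3′ end: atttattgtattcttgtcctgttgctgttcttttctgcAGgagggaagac
Ivns1abp, 817-nt intron, 5′ end: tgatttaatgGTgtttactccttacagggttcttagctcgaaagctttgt
Ivns1abp, 817-nt intron, 3′ end: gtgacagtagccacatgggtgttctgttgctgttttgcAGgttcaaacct
Hsp90ab1, 145-nt intron: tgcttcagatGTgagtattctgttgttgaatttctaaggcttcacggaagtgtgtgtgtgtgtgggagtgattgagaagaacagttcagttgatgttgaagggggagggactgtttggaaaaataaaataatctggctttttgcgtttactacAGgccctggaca
Hsp90ab1, 37-nt segment: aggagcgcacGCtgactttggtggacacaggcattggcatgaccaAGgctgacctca
Clk2, 694-nt intron, 5′ end: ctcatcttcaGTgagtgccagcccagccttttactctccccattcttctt
Clk2, 694-nt intron, 3′ end: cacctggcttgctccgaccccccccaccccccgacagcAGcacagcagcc
Clk2, 346-nt intron, 5′ end: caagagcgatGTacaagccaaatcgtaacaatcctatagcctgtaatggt
Clk2, 346-nt intron, 3′ end: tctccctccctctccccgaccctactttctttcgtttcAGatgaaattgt
Polr2e, 72-nt intron: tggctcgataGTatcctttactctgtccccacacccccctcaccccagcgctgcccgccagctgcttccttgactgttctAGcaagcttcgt
Polr2e, 165-nt intron: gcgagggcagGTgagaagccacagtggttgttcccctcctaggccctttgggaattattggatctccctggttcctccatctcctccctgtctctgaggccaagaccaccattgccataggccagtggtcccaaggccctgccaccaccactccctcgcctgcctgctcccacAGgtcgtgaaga
Xbp1, 26-nt segment: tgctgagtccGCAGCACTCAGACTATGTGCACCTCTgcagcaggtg

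Nearly all introns with a sequence ran from GT or GC to AG. The spliceosome class of an intron was not determined from these ends. Of 1061 distinct introns, 683 were covered by an annotated transcript, and 670 of these ran from GT to AG and 10 from GC to AG. The remaining 3, in Cnbp, Sfpq and Xbp1, had other ends, and none ran from AT to AC, the ends typical of part of the minor class. The Xbp1 segment began with GC and ended with CT, and because the bases GCAGCA follow it, the same spliced product results from 7 placements of the segment. In Hsp90ab1 the 37-nt segment, which is coding sequence in the main mRNA, began with GC and ended with AG. Median GC content over the introns with a sequence was 51.2%, with a range from 24.4% to 83.1%.

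**Figure D1:**
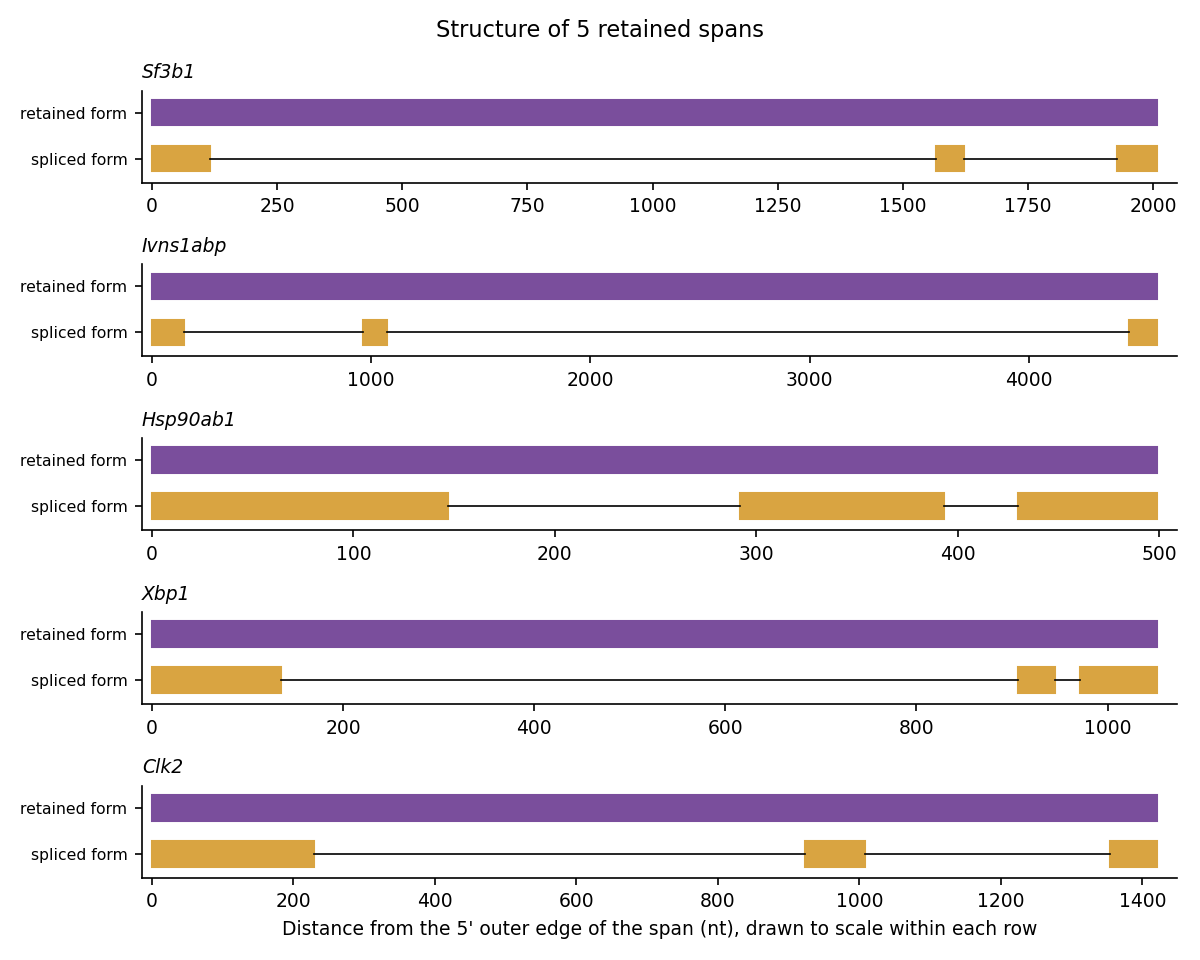
Structure of 5 retained spans, drawn to scale within each row. The x axis is the distance in nucleotides from the 5′ outer edge; purple bars are the single exon of the retained form, and yellow boxes and black lines are the exons and introns of the spliced form. The introns shown run from 26 nt in Xbp1 to 3385 nt in Ivns1abp.

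Most members were introns of protein-coding genes that lay within the coding region. The 534 pairs came from 422 host genes, with 5 pairs that had no gene, and were built from 515 distinct retained and 534 distinct spliced forms, so pairs can share a form. In 351 genes there was 1 pair and in 71 there were more, with 10 in Per1, 4 in Pcif1 and 4 in Exoc1. The retained form ran through 2 introns in 458 members, 3 in 62, 4 in 7 and 5 in 5. The 2 remaining members spanned 6 introns in Psme1, a proteasome activator subunit, and 7 in Traf7, a ubiquitin ligase. The span lay within the coding region in 511 members, across a start or stop codon in 9, and in a UTR in 4. For the other 10 there was no coding transcript, and these include the 5 pairs with no gene. An annotated exon already covered the whole span in 301 members, and for 280 of these a transcript of the class "retained intron" was among those that did. All splice junctions were annotated in 516 members.

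The introns were short. Their median length was 355 nt over 1168 introns, against 452 nt for the 3159 single retained-intron pairs, with a range from 26 to 8065 nt, and 16.9% were under 100 nt. Only 3 were under 40 nt, the segments of Xbp1, Sfpq and Hsp90ab1. Where an annotated exon allowed the reading frame to be carried into the span, in 292 members, 287 (98.3%) met an in-frame stop codon, 258 of them in the first intron, and the median first stop began at base 40 of the span. The 5 members without a stop were in Tnpo2, Klc3, Vps16, Tmem259 and Lmbr1l. In Sf3b1 the first stop began at base 141 and in Hsp90ab1 at base 25. In Polr2e the last 2 exon bases and the first intron base, ta and G in the sequence above, formed it.

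The tables hold between 87403 and 90970 distinct events per library and no read counts, so depth is unknown and no counting interval can be given. The targeted gene was still listed at 105, 121 and 122 FPKM in WT and 117, 124 and 110 FPKM in Hspa9 cKO libraries, but the share of Hspa9 transcripts that include a block of skipped exons was 100%, 89.9% and 86.1% in WT and 24.5%, 15.8% and 26.7% in Hspa9 cKO libraries, so the labels and the targeted gene go together. Of 10 DN3 markers 6 rose in the Hspa9 cKO libraries and none fell, and their summed level was 1370 to 1450 FPKM in WT and 2160 to 2300 FPKM in Hspa9 cKO libraries. Markers of other cells also differed in level. The summed level of the 4 double-positive thymocyte markers was 10.6 to 12.4 FPKM in WT and 4.63 to 5.31 FPKM in Hspa9 cKO libraries, with 2 of 3 tested lower. The 4 NK and ILC markers summed to 12.8 to 15.5 and 6.18 to 7.98 FPKM (1 of 1 tested lower, Id2), and the 3 erythroid markers to 25.9 to 31.7 and 14.5 to 23.8 FPKM (0 of 1 tested called). Among B cell markers Cd79b was listed, at 9.75 to 12.6 and 15.3 to 18.3 FPKM, and of the 5 thymic epithelial markers only Epcam, at 27.2 to 29.1 and 36.7 to 43.0 FPKM; each of these rose, but neither call was stable: that of Cd79b was lost when any 1 library was left out, without the filter and with libraries rescaled by trimmed means of log ratios, and that of Epcam when any library but WT replicate 3 was left out, while Cd79a and Foxn1 were not listed. Myeloid markers summed to 8.92 to 15.0 and 13.5 to 15.5 FPKM, progenitor markers of the DN1 and DN2 stages to 7.16 to 9.23 and 6.52 to 8.23 FPKM, and dendritic markers to at most 0.0439 FPKM. The part of these differences in the splicing results was not tested, and in bulk RNA fewer cells of a type and less RNA per cell cannot be told apart.

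Full retention was rare and low retention common. The mean retained share over the 6 libraries was under 1% in 111 members (20.8%, against 11.8% of single retained introns), 1 to 10% in 273, 10 to 50% in 112, 50 to 90% in 27 and over 90% in 11. In 54 members the share was at least 10% in every library, and in 16 at least 50%. Only 3 stayed at 90% or more throughout: Arglu1, a coactivator and splicing modulator, Akap8l, a nuclear matrix anchor protein, and Sharpin, a subunit of the linear ubiquitin ligase. Such a share holds for 1 spliced form and not for the gene. Against another spliced form, the same retained form ranged from 78.7% to 100% in Arglu1, 10.4% to 55.2% in Akap8l and 41.1% to 99.6% in Sharpin. At the other end 76 members were under 1% in every library.

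Many retained forms were not listed in every library. The retained form was listed in all 6 libraries for 235 members and in 1 to 5 for 299, and an absent form was counted as 0, although such a 0 can be a failed estimate. In 9 members the retained form was listed in all 3 WT and in no Hspa9 cKO library, and in 4 the reverse held. WT replicate 2 stood apart, with 296 retained forms listed against 328 to 341 in the other libraries and a median share of 0.0418% against 0.272% to 0.357%. Among the 150 members with a mean share of at least 10%, the SD of the share over 3 libraries had a median of 11.2 percentage points in WT and 9.95 in Hspa9 cKO.

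Members with high and low shares differed little in length and base content. The 150 members at 10% or more held a median of 847.5 nt of retained intron, and the 111 members under 1% held 994 nt, with median GC contents of 52.1% and 50.9%. An annotated exon covered the span in 67.3% of the first and 95.5% of the second. Median totals of both forms were 11 and 18.4 FPKM. These are descriptions of classes cut from the share itself.

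**Figure D2:**
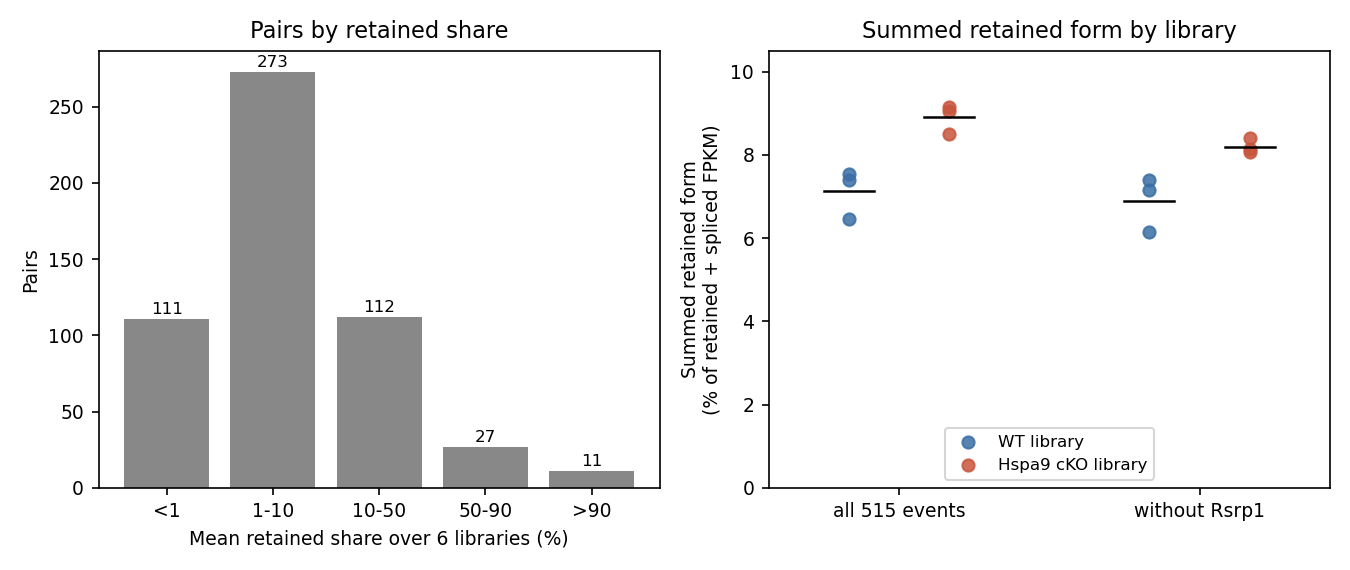
Left, number of members (y axis) by class of mean retained share over 6 libraries (x axis, percent), with 273 members at 1 to 10% and 11 over 90%. Right, summed retained forms as a percentage of summed retained and spliced forms (y axis) in each library, over all 515 retained forms and without Rsrp1, with group means as black lines; the 3 Hspa9 cKO libraries sit at 8.5 to 9.15%, above the WT libraries at 6.47 to 7.55%, and without Rsrp1 the ranges are 8.06 to 8.4% and 6.14 to 7.4%.

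Summed over all members, retained forms made up 7.55%, 6.47% and 7.4% of the FPKM of both forms in the WT libraries and 9.15%, 8.5% and 9.06% in the Hspa9 cKO libraries. The groups did not overlap. Without Rsrp1, which had the largest gain of a retained form and was chosen after its values were seen, the percentages were 7.16, 6.14 and 7.4 in WT and 8.4, 8.13 and 8.06 in Hspa9 cKO, still without overlap. Other large gains were in Sf3b1 (20.3 FPKM), H2-Q7 (19.1), Arglu1 (18.8) and Sfpq (13.2), while Hsp90ab1 (-15.85 FPKM) and Ivns1abp (-9.47) fell. A few forms thus weigh heavily, and the sums were not taken without these. The median share difference over members was 0.042 percentage points. Forms can share transcripts, so these sums do not count separate molecules. In single retained introns the same sum was 10.4%, 10.3% and 10.4% in WT and 10.7%, 11.0% and 11.4% in Hspa9 cKO.

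Few pairs were called between the groups. On the log2 ratio of retained to spliced form (each with 1 FPKM added), 1 member rose in the Hspa9 cKO libraries, Sf3b1, and 2 fell, Ivns1abp and Hsp90ab1, at an adjusted p under 0.05 (limma, adjusted over all 9507 pairs). That is 0.562% of the members, where 0.305% of all pairs were called, 0.2% higher and 0.105% lower, and 0.475% of single retained introns. The Sf3b1 and Hsp90ab1 pairs passed the 5 FPKM minimum only through the group in which they were high, so their calls are descriptions. The median log2 ratio difference over members was 0.03, against 0.08 over all pairs, with 277 members positive and 257 negative. Unadjusted p was under 0.05 in 65 members, 34 (6.37%) higher and 31 (5.81%) lower, beside 5.97% and 3.83% of all pairs. The 3 WT and 3 Hspa9 cKO shares did not overlap in 58 members, 32 (5.99%) higher and 26 (4.87%) lower in Hspa9 cKO, where 6.56% and 3.62% of all pairs and 4.43% and 4.62% of single retained introns did so. On the higher side both counts lie near these backgrounds. On the lower side they were above those of all pairs, at 5.81% against 3.83% and 4.87% against 3.62%. The latter was near the 4.62% of single retained introns, and none of these differences was tested.

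**Figure D3:**
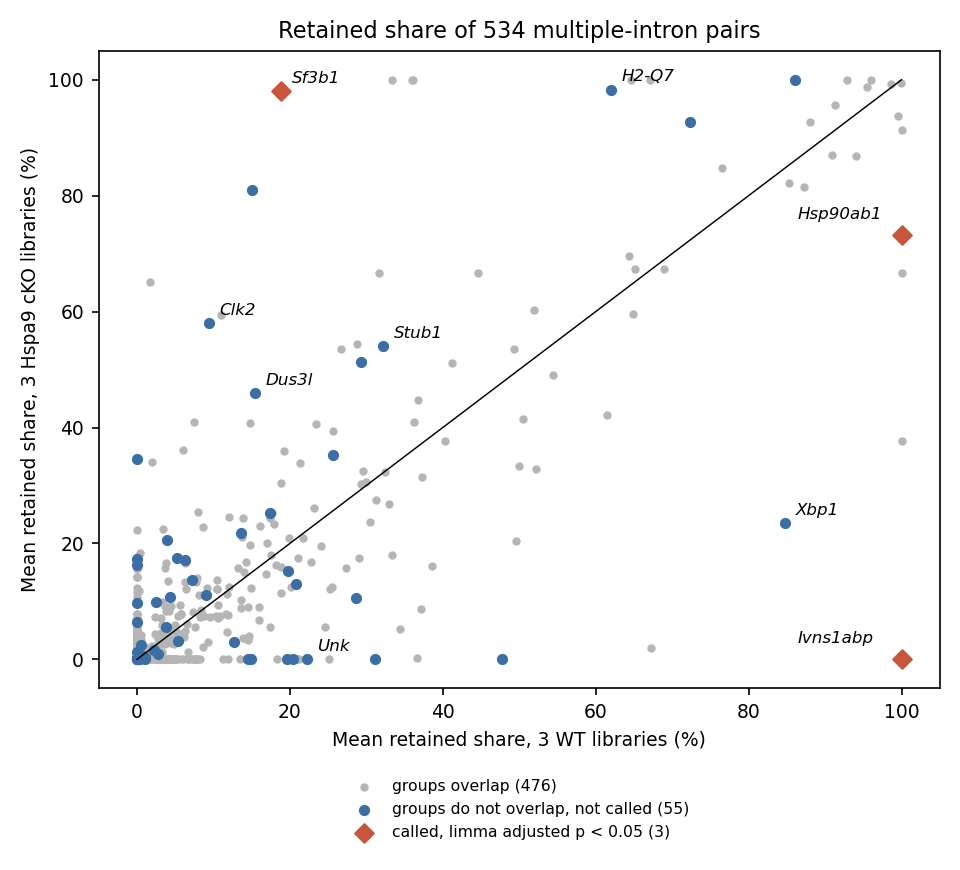
Mean retained share (percent) of each of the 534 members in 3 WT libraries (x axis) and 3 Hspa9 cKO libraries (y axis), with 476 members whose groups overlap, 55 that do not overlap and were not called, and the 3 called members. Sf3b1 lies far above the diagonal, at 18.9% and 98.1%, Ivns1abp at the lower right corner, at 100% and 0%, and most members lie near the origin.

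Sf3b1 (ENSMUSG00000025982), the SF3B1 subunit of the U2 particle, gained a form that reads through 2 introns. The span chr1:55014563-55016375 (mm10, minus strand) lies within the coding region and holds introns of 1451 and 306 nt around a 56-nt exon, and an annotated retained-intron transcript covers it. The retained form was at 0.103, 0.127 and 0.126 FPKM in WT (values are given from replicate 1 to 3 in each group throughout) but 19.6, 22.8 and 18.9 FPKM in Hspa9 cKO. All 3 Hspa9 cKO libraries were far above all WT libraries. The paired spliced form was low in each library, at 0.529, 0.506 and 0.495 FPKM in WT and 0.397, 0.44 and 0.378 FPKM in Hspa9 cKO. Retained shares were thus 16.3%, 20.1% and 20.3% in WT and 98.0%, 98.1% and 98.0% in Hspa9 cKO, and the log2 ratio rose by 4.36 (SE 0.27, adjusted p = 0.00846). The retained form itself rose by 4.25 (SE 0.15, adjusted p = 0.000918). It reached the 1 FPKM needed for a level test only in Hspa9 cKO.

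This spliced form, with its short middle exon, was a minor one. The main spliced form joins the outer exons directly and was at 63.1, 92.8 and 85.0 FPKM in WT and 62.1, 62.8 and 65.2 FPKM in Hspa9 cKO libraries. Against it, in a single retained-intron pair of 1813 nt, the same retained form had a share of 0.163%, 0.137% and 0.148% in WT and 24.0%, 26.7% and 22.4% in Hspa9 cKO (log2 ratio 4.57 higher, SE 0.26, adjusted p = 0.00846). As a percentage of the gene level it was 0.121, 0.136 and 0.127 in WT and 21.3, 22.8 and 20.6 in Hspa9 cKO. The gene level itself was 85.1, 93.6 and 99.5 FPKM in WT and 92.1, 99.95 and 91.4 FPKM in Hspa9 cKO, and the groups overlapped (log2 difference 0.03, SE 0.08, adjusted p = 0.846). The adjusted p of the ratio ran from 0.0386 to 0.0698 when each library was left out in turn, and was above 0.05 without Hspa9 cKO replicate 1, 2 or 3. A second pair of the gene shares the retained form, and its spliced form had a value only in WT replicate 1, of 7.25 FPKM (adjusted p = 0.146).

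Ivns1abp (ENSMUSG00000023150), a Kelch-repeat protein first found through an influenza protein that it binds, showed the opposite change in this pair. Its span chr1:151355312-151359621 (plus strand) lies within the coding region and holds introns of 817 and 3385 nt around a 108-nt exon. The retained form was at 6.57, 9.2 and 12.6 FPKM in WT and listed in no Hspa9 cKO library (adjusted p = 0.00806). The spliced form was listed in no WT library and was at 9.81, 5.95 and 8.94 FPKM in Hspa9 cKO (adjusted p = 0.00767). Each form reached the 1 FPKM needed for a level test in 1 group only. Every WT library had a share of 100% and every Hspa9 cKO library 0%, and the log2 ratio fell by 6.53 (SE 0.41, adjusted p = 0.00846), a value that depends on the added 1 FPKM. The gene level was 111, 115 and 116 FPKM in WT and 98.0, 100.1 and 102 FPKM in Hspa9 cKO (log2 difference -0.18, SE 0.06, adjusted p = 0.0936). In WT the retained form was 5.93%, 8.01% and 10.9% of it. Leaving out each library gave adjusted p from 0.0386 to 0.0618, under 0.05 only without WT replicate 1 or 3. A second pair, with introns of 538 and 3385 nt, shares the retained form and was not called (adjusted p = 0.688). Its spliced form was at 35.8, 32.5 and 38.4 FPKM in WT and 0, 4.74 and 0 FPKM in Hspa9 cKO. In a single retained-intron pair, the 817-nt intron had shares of 100% in WT and 83.7%, 88.5% and 84.9% in Hspa9 cKO (adjusted p = 0.0498).

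Other forms of Ivns1abp show that the 3385-nt intron was not simply removed more often. With an exon that runs through the 817-nt intron, that intron had a retained share of 17.1%, 21.9% and 38.3% in WT and 0% in each Hspa9 cKO library (log2 ratio lower by 4.14, SE 0.42, adjusted p = 0.0332). With an upstream exon that begins inside the 817-nt intron, the same 3385 nt went the other way: the retained form was listed in no WT library and was at 6.3, 11.4 and 7.85 FPKM in Hspa9 cKO, and the spliced form was at 35.8, 32.5 and 38.4 FPKM in WT and 0, 4.74 and 0 FPKM in Hspa9 cKO. Shares there were 0% in WT and 100%, 70.7% and 100% in Hspa9 cKO, and the log2 ratio rose by 7.57 (SE 0.60, adjusted p = 0.0197). In the remaining form of that intron the retained event was listed only in WT replicates 1 and 2, at 4.04 and 3.88 FPKM (adjusted p = 0.55). The direction therefore depended on which upstream exon the form carries.

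Hsp90ab1 (ENSMUSG00000023944), the constitutive cytosolic HSP90 chaperone, had less of its retained form in Hspa9 cKO libraries. The span chr17:45571482-45571764 (minus strand) holds a 145-nt intron, a 101-nt exon and the 37-nt segment printed above, within the coding region. The retained form was at 18.04, 18.2 and 13.6 FPKM in WT and 0.882, 1.4 and 0.0234 FPKM in Hspa9 cKO, without overlap, and fell by 3.39 on the log2 scale (SE 0.35, adjusted p = 0.0147). Its paired spliced form was listed in no WT library and reached 0.0594, 0.0565 and 0.0554 FPKM in Hspa9 cKO. The shares were 100% in each WT library and 93.7%, 96.1% and 29.7% in Hspa9 cKO, and the log2 ratio fell by 3.47 (SE 0.39, adjusted p = 0.0498).

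Taken singly, the parts of the Hsp90ab1 span had very different shares. In a single retained-intron pair against the main mRNA, the share of the 145-nt intron was 1.39%, 1.39% and 1.04% in WT and 0.0981%, 0.148% and 0.0026% in Hspa9 cKO (adjusted p = 0.0506). The 37-nt segment stayed in at least 99.99% of the summed forms in every library, although its log2 ratio fell by 0.57 (adjusted p = 0.0197), since the form that keeps it was at 1276, 1294 and 1289 FPKM in WT and 898, 947 and 899.8 FPKM in Hspa9 cKO and the form without it at most at 0.0594 FPKM. The gene level was 1295, 1313 and 1304 FPKM in WT and 899, 948 and 900.0 FPKM in Hspa9 cKO and fell by 0.51 (SE 0.05, adjusted p = 0.00493). The call of the pair lay at the threshold: adjusted p ran from 0.0805 to 0.159 without any 1 library, and was 0.171 with 0.1 FPKM added in place of 1 and 0.68 on the share itself.

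**Figure D4:**
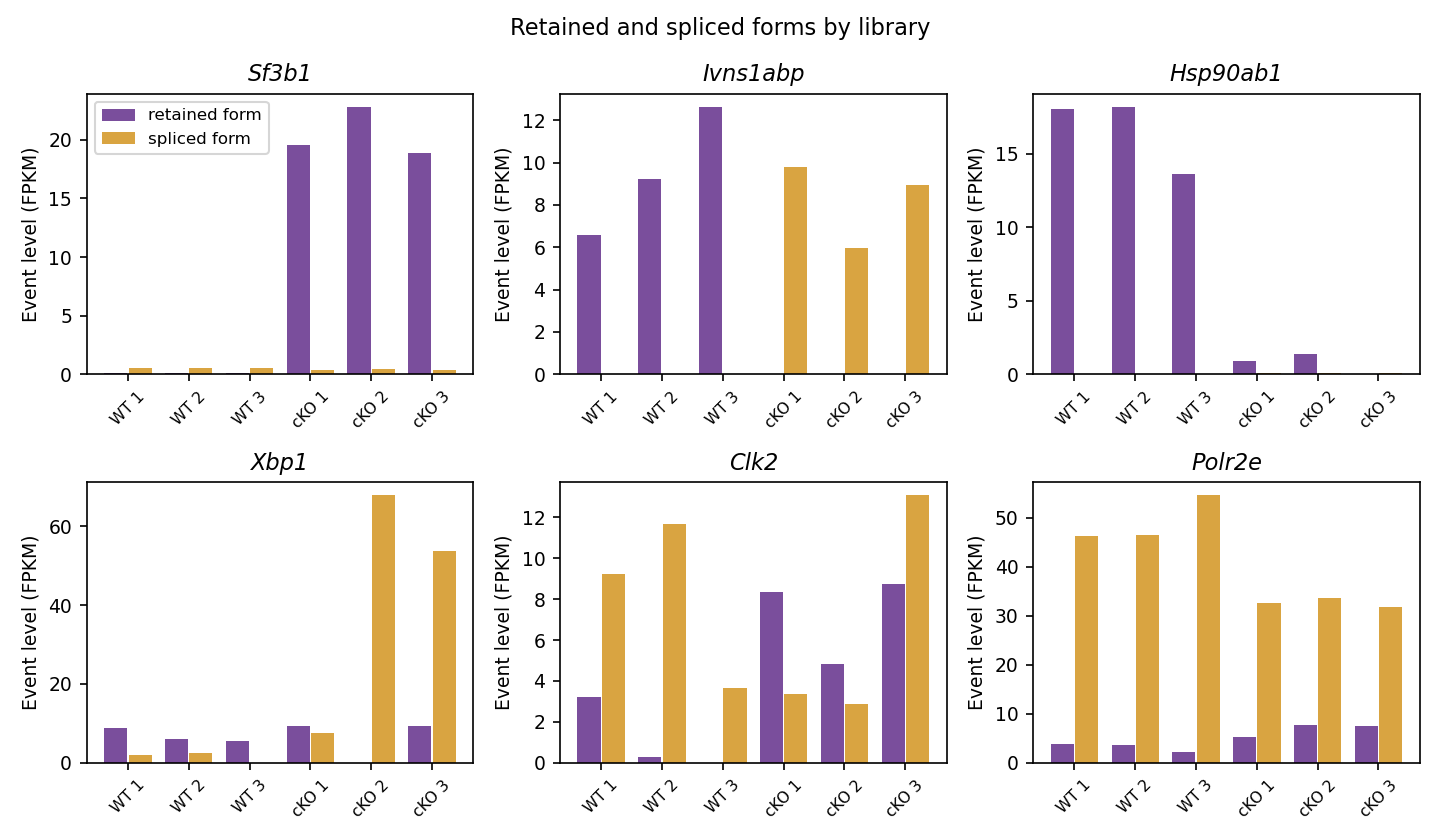
Event level (FPKM, y axis) of the retained form (purple) and the spliced form (yellow) in each WT and Hspa9 cKO library (x axis) for 6 genes. In Sf3b1 the retained form stands at 18.9 to 22.8 FPKM in the 3 Hspa9 cKO libraries and at most 0.127 FPKM in WT, and the spliced form of Xbp1 reaches 67.8 and 53.7 FPKM in replicates 2 and 3 of Hspa9 cKO.

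The Xbp1 span (chr11:5523468-5524303, plus strand) combines a 771-nt intron with the 26-nt segment that IRE1 removes. The form that keeps both was at 8.73, 6.14 and 5.62 FPKM in WT and 9.29, 0 and 9.32 FPKM in Hspa9 cKO. Without both, the spliced form was at 1.85, 2.42 and 0 FPKM in WT and 7.42, 67.8 and 53.7 FPKM in Hspa9 cKO (adjusted p = 0.0986). Retained shares of 82.5%, 71.8% and 100% in WT and 55.6%, 0% and 14.8% in Hspa9 cKO did not overlap, with a log2 ratio difference of -4.59 (SE 1.62, adjusted p = 0.463). Hspa9 cKO replicate 1 was close to WT and the other two were not. For the 26-nt segment alone the share was 86.4%, 86.3% and 100% in WT and 81.9%, 6.84% and 16.2% in Hspa9 cKO (adjusted p = 0.484), and the 771-nt intron alone showed overlapping shares of 42.5%, 28.7% and 18.2% in WT and 21.7%, 0% and 47.4% in Hspa9 cKO. The gene itself rose, from 39.1, 36.5 and 31.2 FPKM in WT to 67.8, 78.4 and 90.1 FPKM in Hspa9 cKO (log2 1.12, adjusted p = 0.00716).

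Clk2, a kinase that phosphorylates SR proteins, had the largest such difference among members of at least 10 FPKM in total whose shares lay higher in Hspa9 cKO without a call. Its span chr3:89168924-89170048 (plus strand) holds introns of 694 and 346 nt. The retained form was at 3.22, 0.265 and 0.0116 FPKM in WT and 8.34, 4.81 and 8.74 FPKM in Hspa9 cKO, and the spliced form at 9.26, 11.7 and 3.67 FPKM and 3.36, 2.88 and 13.1 FPKM. The shares of 25.8%, 2.21% and 0.315% in WT and 71.3%, 62.5% and 40.1% in Hspa9 cKO did not overlap (log2 ratio difference 2.66, SE 0.70, adjusted p = 0.337). Against the spliced form of a second Clk2 pair with a higher total, the same retained form had overlapping shares of 18.5%, 4.03% and 0.054% in WT and 42.9%, 18.03% and 62.0% in Hspa9 cKO (adjusted p = 0.505). The gene level did not move with it (log2 difference 0.01, adjusted p = 0.974).

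All 4 CLK kinases host a member. The Clk1 share was 10.3%, 30.3% and 12.4% in WT and 14.3%, 46.4% and 15.2% in Hspa9 cKO, with replicate 2 high in both groups. Clk3 had 9.36%, 42.0% and 5.15% in WT and 16.7%, 21.2% and 10.003% in Hspa9 cKO. The Clk4 retained form was listed in WT replicate 1 alone, for a share of 17.5%. Groups overlapped in these 3 genes.

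Polr2e, a subunit shared by the nuclear RNA polymerases, had 2 short introns of 72 and 165 nt in the span chr10:80036599-80036914 (minus strand). Its retained form was at 3.91, 3.53 and 2.21 FPKM in WT and 5.19, 7.62 and 7.51 FPKM in Hspa9 cKO. The spliced form was at 46.4, 46.5 and 54.6 FPKM in WT and 32.6, 33.7 and 31.7 FPKM in Hspa9 cKO and fell by 0.57 (SE 0.10, adjusted p = 0.0446). Neither form overlapped between the groups. The share was 7.78%, 7.04% and 3.89% in WT and 13.7%, 18.4% and 19.1% in Hspa9 cKO (log2 ratio difference 1.46, SE 0.34, adjusted p = 0.255).

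**Figure D5:**
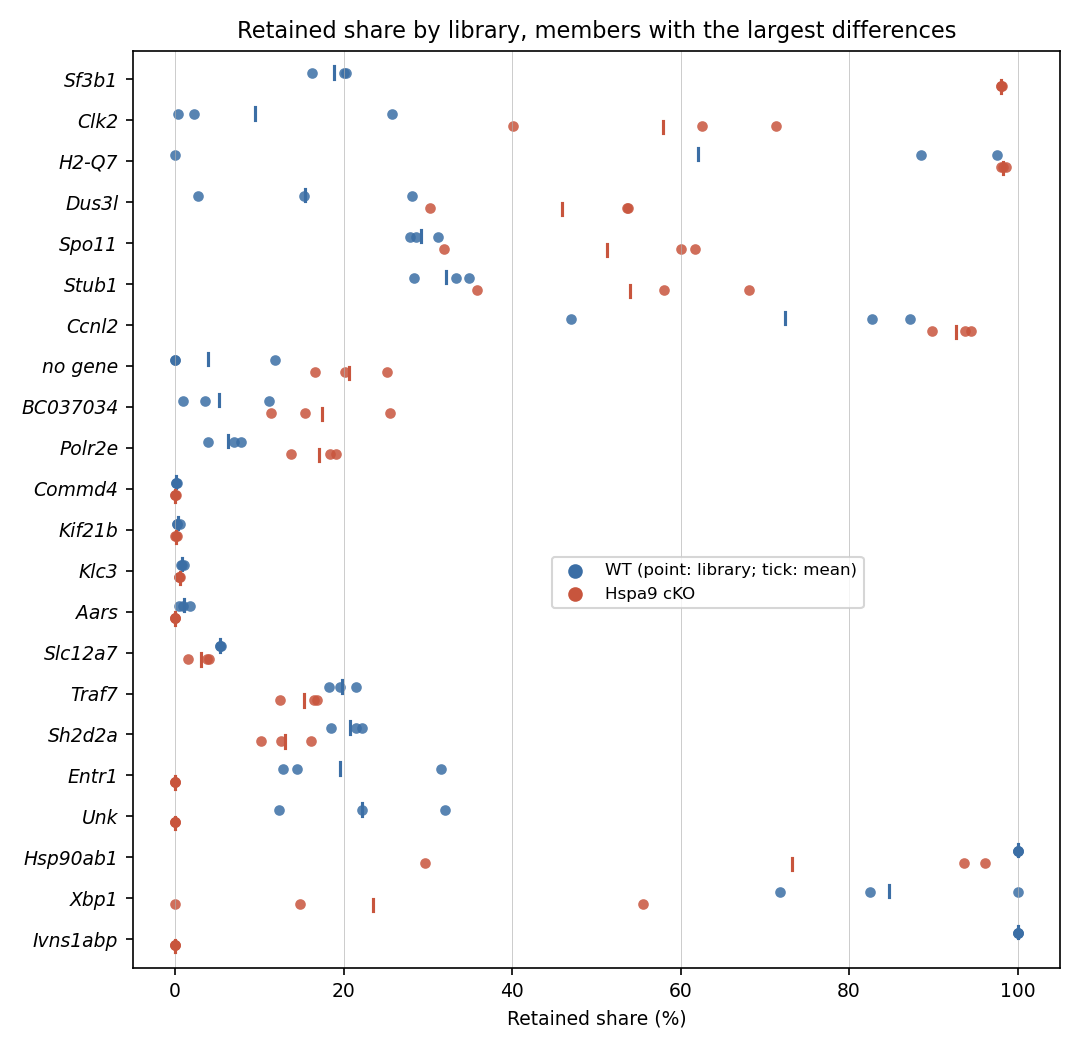
Retained share (percent, x axis) in each library for 22 members: the called ones and, in each direction, the 10 with the largest difference among members without overlap whose forms together averaged 10 FPKM or more. Points are libraries, ticks the group means, and "no gene" is a span on a patch scaffold with no assigned gene. The Ivns1abp groups stand at 100% and 0%, while those of Commd4, Kif21b and Klc3 differ by less than 1 percentage point.

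Further members lay higher in Hspa9 cKO without overlap and without a call. Dus3l, a tRNA dihydrouridine synthase, had shares of 2.78%, 28.1% and 15.3% in WT and 30.3%, 53.6% and 53.8% in Hspa9 cKO (adjusted p = 0.438), while a second pair of the gene overlapped. In Stub1, a ubiquitin ligase that works with HSP70 and HSP90, they were 33.4%, 28.3% and 34.8% in WT and 58.0%, 35.9% and 68.2% in Hspa9 cKO (adjusted p = 0.543). Spo11, the meiotic recombination protein, had 28.6%, 31.2% and 27.9% in WT and 31.9%, 61.8% and 60.1% in Hspa9 cKO (adjusted p = 0.543). The level of this Spo11 retained form was not called (log2 difference 0.19, SE 0.35, adjusted p = 0.807). Of 4 Spo11 pairs, the others share another retained form, with means of 8.32 FPKM in WT and 7.75 FPKM in Hspa9 cKO. Their ratios were not called either (adjusted p from 0.543 to 0.936). In Stub1 and Spo11 1 Hspa9 cKO library lay just above the WT range. Ccnl2, a cyclin bound to splicing factors, had 47.1%, 82.7% and 87.3% in WT and 93.8%, 94.5% and 89.8% in Hspa9 cKO (adjusted p = 0.581). BC037034 had 11.2%, 0.966% and 3.61% in WT and 25.5%, 15.4% and 11.4% in Hspa9 cKO (adjusted p = 0.505). A span on a patch scaffold with no assigned gene had 0%, 0% and 11.9% in WT and 16.6%, 25.1% and 20.1% in Hspa9 cKO (adjusted p = 0.391). In Ccnl2, Dus3l and BC037034 the spread within WT was wide.

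H2-Q7, a nonclassical MHC class I gene, had a share near 100% in all libraries but 1. It was 88.5%, 97.5% and 0% in WT and 98.2%, 98.7% and 98.0% in Hspa9 cKO (adjusted p = 0.27). Its retained form was at 3.77, 4.18 and 0 FPKM in WT and 20.9, 27.1 and 17.2 FPKM in Hspa9 cKO, while the gene level rose by 1.98 (adjusted p = 0.00064), from 14.7, 17.1 and 17.0 FPKM to 69.7, 70.4 and 60.9 FPKM. The span crosses the stop codon, and near-identical H2-Q genes make the division of reads uncertain.

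On the lower side, the retained forms of Unk and Entr1 were listed in every WT and in no Hspa9 cKO library. Unk, an RNA-binding zinc finger protein, retains introns of 1863 and 564 nt, at 2.24, 1.86 and 3.81 FPKM in WT, where the shares were 22.2%, 12.3% and 32.0%. The ratio was not called (adjusted p = 0.146). The form fell in level (adjusted p = 0.0384), but it passed the 1 FPKM filter only through WT, so that p-value is a description. Entr1, an endosomal trafficking regulator, retained introns of 352 and 380 nt at 4.2, 4.22 and 5.14 FPKM in WT, with shares of 14.5%, 12.8% and 31.5%. That form also passed the filter only through WT, and its fall (adjusted p = 0.0104) is likewise a description. The ratio had an adjusted p of 0.357, and the gene level fell by 0.32 (adjusted p = 0.0257). A second Entr1 pair overlapped, with its retained form at a share of 42.3% in Hspa9 cKO replicate 1.

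The other named members that lay lower, chosen among those of 10 FPKM or more, differed by fewer percentage points. Sh2d2a, a T cell adaptor protein, had shares of 21.5%, 22.2% and 18.6% in WT and 16.2%, 10.2% and 12.6% in Hspa9 cKO (adjusted p = 0.568). Traf7 had 18.2%, 21.5% and 19.6% in WT and 16.9%, 16.5% and 12.5% in Hspa9 cKO over introns of 173 and 84 nt (adjusted p = 0.708). In Slc12a7, a potassium-chloride cotransporter, the share was 5.48%, 5.3% and 5.31% in WT and 4.09%, 3.76% and 1.54% in Hspa9 cKO (adjusted p = 0.497), and here the spliced form rose by 0.63 (adjusted p = 0.0414) with the gene (0.55, adjusted p = 0.0174). Aars, the alanyl-tRNA synthetase, had 1.83%, 0.914% and 0.508% in WT and 0.0136%, 0.00446% and 0.00448% in Hspa9 cKO (adjusted p = 0.426). Shares in Klc3 and Kif21b, both of the kinesin motor system, and Commd4 were between 0% and 1.07% in all libraries, with adjusted p from 0.502 to 0.625.

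By themselves, few retained forms changed in level. Of 142 retained forms with at least 1 FPKM in 3 or more libraries, 2 rose (1.41%) and 6 fell (4.23%), beside 1.84% and 1.12% of all 16540 tested forms of every type. Most of the called forms were near or at 0 in 1 group and passed the 1 FPKM filter only through the other, so these shares are not compared. Those that rose were Sf3b1 and Taok2, a stress-activated kinase. Those that fell were Ivns1abp, Hsp90ab1, Unk, Entr1, Pprc1, a coactivator of mitochondrial gene expression, and Fhod1, an actin-binding formin. Taok2, Pprc1 and Fhod1 were chosen after their values were seen. The Taok2 form was listed in no WT library and was at 3.44, 3.45 and 3.99 FPKM in Hspa9 cKO (adjusted p = 0.014), with shares of 26.9%, 43.1% and 33.9% (ratio adjusted p = 0.085). In Pprc1 it was at 4.36, 3.66 and 3.23 FPKM in WT and not listed in Hspa9 cKO (adjusted p = 0.0147), and in Fhod1 at 1.81, 2.22 and 1.72 FPKM in WT and not listed in Hspa9 cKO (adjusted p = 0.0369). In 6 of these 8 genes the form was listed in 1 group only. The exceptions were Sf3b1 and Hsp90ab1.

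Of 507 spliced forms tested, 13 rose and 13 fell (2.56% each), beside 1.84% higher and 1.12% lower among all 16540 tested forms of every type. Among those that fell were 6 forms of Per1, a repressor of the circadian clock, the most divided gene. For the first of them the level was 21.6, 15.5 and 22.9 FPKM in WT and 6.04, 4.27 and 5.75 FPKM in Hspa9 cKO (log2 -1.72, SE 0.20, adjusted p = 0.019). None of the 10 Per1 pairs had shares without overlap, and in 8 of them the retained form was listed in only 1 or 2 libraries. Spliced forms of the proliferation genes Tk1, Racgap1 and Kif22 fell by 0.82, 0.82 and 0.80, and their genes fell by 0.72, 0.80 and 0.71. A form of Snrpa1, which encodes a U2 particle protein, fell by 0.54 (SE 0.08, adjusted p = 0.0274), at 41.2, 39.6 and 39.2 FPKM in WT and 27.1, 26.7 and 27.4 FPKM in Hspa9 cKO. Pck2, the mitochondrial PEP carboxykinase, had a spliced form at 5.09, 5.42 and 3.57 FPKM in WT and 16.4, 12.8 and 13.2 FPKM in Hspa9 cKO, which rose by 1.42 (SE 0.18, adjusted p = 0.0222) as the gene rose by 1.40. In Gas5 and Edem1, by contrast, a spliced form rose, by 1.01 and 2.76, while the gene was not called (adjusted p = 0.578 and 0.0787). These genes were named after their values were seen.

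Host genes as a class were near the background. Of 408 with a tested level 33 rose (8.09%) and 17 fell (4.17%), where 7.88% and 5.49% of 9250 genes did so, and the median log2 differences were 0.04 and 0.06. With the rescaled libraries the split was 25 higher and 27 lower, and over all genes 6.05% were higher and 7.21% lower.

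The 5 pairs with the highest totals came from 4 genes. Rpl12, a ribosomal protein, had a mean total of 437 FPKM and shares of 2.67%, 1.82% and 2.2% in WT and 2.06%, 2.27% and 0.68% in Hspa9 cKO. Eif4a1, the cap-complex helicase, had 2 pairs, with totals of 350 and 312 FPKM. In the first the share was 3.87%, 6.44% and 6.8% in WT and 6.14%, 3.13% and 14.4% in Hspa9 cKO. In the second it reached 99.0% in Hspa9 cKO replicate 3, where the spliced form was at 0.256 FPKM, and 3.19% to 7.43% elsewhere. Ncl, the nucleolar protein nucleolin, and Cct3, a chaperonin subunit, had totals of 147 and 135 FPKM and mean shares under 1%. The members with most introns were retained at well under 1% as well. For the 7 introns of Traf7 the share was 0.416%, 0.0358% and 0.291% in WT and 0.112%, 0.0843% and 0.35% in Hspa9 cKO, and for the 6 of Psme1 0.121%, 0.187% and 0.238% in WT and 0.333%, 0.0834% and 0.141% in Hspa9 cKO. Over 5 introns of Slc38a2, an amino acid transporter, it was 0.302%, 0.311% and 0.673% in WT and 0.27%, 0.456% and 0.415% in Hspa9 cKO. Just inside the minimum lay Hars2, Zdhhc17 and Sfxn2, at 5.01, 5.05 and 5.07 FPKM, and just outside Kcnh3, Gmppa and Rps6kl1, at 4.9957, 4.96 and 4.96 FPKM.

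Some of the most abundant retained forms varied within groups as much as between them. Rsrp1, an arginine- and serine-rich protein, had 43.8, 33.2 and 0.729 FPKM of its retained form in WT and 85.1, 51.1 and 109 FPKM in Hspa9 cKO, with shares of 93.3%, 93.1% and 20.4% and of 73.3%, 32.6% and 96.2%. Levels did not overlap between the groups, but shares did, and the gene rose by 0.80 (adjusted p = 0.00597). In Arglu1 the retained form was at 37.0, 12.4 and 30.4 FPKM in WT and 52.4, 53.9 and 30.1 FPKM in Hspa9 cKO. Sfpq, a nuclear RNA-binding protein of paraspeckles, had 0, 0 and 12.9 FPKM in WT and 29.2, 23.4 and 0 FPKM in Hspa9 cKO. Akap8 was steadier, at 91.8%, 93.7% and 76.1% in WT and 86.1%, 73.7% and 84.5% in Hspa9 cKO, and so was Exosc8, an RNA exosome subunit, at 28.7%, 28.1% and 33.1% in WT and 31.3%, 30.2% and 30.3% in Hspa9 cKO. Groups overlapped in each of these 4 shares or levels.

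Gene levels were also read for lists of splicing and RNA-decay genes, beside 7.88% higher and 5.49% lower among all genes, or 6.05% and 7.21% with the rescaled libraries. Of 15 tested U2 and U2AF factors, which bind the branch point and 3′ splice site, 6 fell and none rose, with a median log2 difference of -0.39, and the summed level was 874 to 1040 FPKM in WT and 686 to 729 FPKM in Hspa9 cKO. Sf3b4 fell by 0.50 (adjusted p = 0.0134) and Sf3b3 by 0.33 (adjusted p = 0.0189), and the others were Sf3b6, Sf3a2, Sf3a3 and U2af1. Only 1 or 2 of these calls were made when any 1 of the 6 libraries was left out. Among 17 factors of U1, U5 and the tri-snRNP 2 fell, Eftud2 by 0.74 (adjusted p = 0.0324) and Snrpc by 0.44 (adjusted p = 0.0446), with a median of -0.20.

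The other lists held few calls. Of 15 SR proteins 2 fell, Srsf9 by 0.52 (adjusted p = 0.019) and Srsf3 by 0.47 (adjusted p = 0.0441). Of 21 hnRNPs 1 fell, Hnrnpab by 0.57 (adjusted p = 0.00514), and of 18 exon junction and nonsense-mediated decay factors 1 fell, Magoh by 0.63 (adjusted p = 0.00666). Among 21 genes of the nuclear exosome and nuclear retention Zfc3h1 rose by 0.70 (adjusted p = 0.0182) and Exosc7 fell by 0.29 (adjusted p = 0.0434). None of 8 spliceosome kinases or 10 minor spliceosome genes was called.

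Some genes of these lists hosted members. These were 4 of 8 spliceosome kinases, 3 of 15 SR proteins, 2 of 15 U2 and U2AF factors and 1 of 17 factors of U1, U5 and the tri-snRNP. They also included 1 of 21 hnRNPs, 1 of 10 minor spliceosome genes and 1 of 21 genes of the exosome and retention list. Among all 9250 tested genes 408 were hosts, and the difference was not tested. SR proteins hosted 3 members, of which that of Srsf2 was listed as retained in replicate 1 of each group alone, at 26.8 FPKM in WT and 38.7 FPKM in Hspa9 cKO. In the hnRNP list Hnrnph1 had shares of 22.7%, 24.6% and 29.7% in WT and 36.2%, 37.8% and 31.8% in Hspa9 cKO, which did not overlap (adjusted p = 0.587). Ddx23, a helicase of the U5 particle, had 6.46%, 10.9% and 4.35% in WT and 12.8%, 15.7% and 12.7% in Hspa9 cKO, also without overlap (adjusted p = 0.53). No nonsense-mediated decay factor hosted a member.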

How the data were processed

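RNA from 3 WT and 3 Hspa9 cKO libraries of DN3 thymocytes was sequenced after poly(A) selection or ribosomal RNA removal; the labels' protocols name both without a choice. The submitters' processing notes name cutadapt 1.9.1 and the build mm10. For the aligner, event caller and annotation the sources used here give no name. The authors deposited 1 FPKM value per transcript event and library, per the file headers; it depends on how reads were divided among isoforms. Repeated event numbers, whose values never differed, were dropped. Events not listed were set to 0. The lowest listed value was 1e-06.

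Ratios, log2((retained FPKM + 1)/(spliced FPKM + 1)), were tested over 9507 pairs of 4 event types (multiple and single retained introns, multiple and single skipped exons) with limma 3.58.1 in R 4.3.3, as a two-sided test with empirical Bayes variances (trended, robust), Benjamini-Hochberg adjustment and a threshold of 0.05. Event levels and gene levels (summed transcript-start events) were tested likewise on log2(FPKM + 1), where 3 or more libraries reached 1 FPKM; fold changes on this scale understate those of low forms. Ratios, levels, pairing and filters were varied as given in the closing section. The fits were tested on simulated data. Named were the called members, the 10 per direction with the largest share difference among those without overlap whose mean total reached 10 FPKM, the 5 with the highest totals, the 3 with most introns, those beside the minimum, and 2 called genes per list and direction; for a gene with several such pairs the one with the largest total is meant. All others were chosen after their values were seen. Members and lists were chosen with earlier results of these data known. Sequences came from GENCODE M21 transcripts; introns that no annotated transcript covers were not read. Sequences on chromosome 18 are not printed.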

Additional observations from a re-analysis of the deposited data

How the results depend on the processing

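Of 22 members followed over the alternatives, including each library left out, 0 changed direction, the side of the threshold was kept in 339 settings and a call was lost in 22, which concern Sf3b1, Ivns1abp and Hsp90ab1. Most of the 339 are settings in which a member not called in the main fit stayed uncalled. Of the 6 fits without 1 library, Sf3b1 kept its call in 3, Ivns1abp in 2 and Hsp90ab1 in 0. The count of members called higher, 1, became 2 with 0.1 FPKM added, 2 on the share itself, 6 when only multiple retained introns were fitted and 0 when forms were summed over a span; without 1 library it was 0 to 2. The count called lower, 2, became 1 at a minimum of 1 FPKM, 0 at a minimum of 10 FPKM, which both miss, 1 without a minimum, 0 for pairs listed in all 6 libraries (a setting that Ivns1abp and Hsp90ab1 cannot enter), 0 summed over a span, and 1 with a looser pairing added after the data were seen; without 1 library it was 0 to 1. Called retained forms, 8, became 5 with 0.1 FPKM added, and 1 to 9 without 1 library. Called spliced forms, 26, became 15 without a filter, and 0 to 10 without 1 library. Called host genes, 50, were 16 to 34, and called list genes, 14, were 3 to 7 without 1 library. Medians near 0 changed sign for SR proteins on transcript ends (0.05 from -0.06). That of minor spliceosome genes, 0.06, became -0.09 without WT replicate 2, -0.017 without Hspa9 cKO replicate 1 and -0.001 with the rescaled libraries. The cause of the other moves was not tested. A replicate block, for numbers shared between the groups, gave 0 members higher, 0 lower, 0 retained and 0 spliced forms, 5 host genes and 1 list gene. Same-numbered libraries correlated at -0.002, 0.006 and 0.017 in their ratio deviations. The labels do not say whether the numbers mark pairs, and correlations over 3 libraries per group cannot settle it. In the main fits they were treated as names only. With no counts, depth sets no stated limit, and retained forms under about 1 FPKM were not tested as levels.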
